A study of Homo sapiens with 8 samples.

Results

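The 9 genes described here act in vesicle traffic and were picked by symbol from 61228 gene names. The RAB27 and SYTL genes belong to the machinery that moves secretory vesicles to the plasma membrane. RAB27A and RAB27B are small GTPases, and SYTL1 to SYTL5 encode synaptotagmin-like proteins that bind them. RAB39B and ARL14 are small GTPases of other branches. SYTL3, ARL14 and RAB39B were picked because their responses to ACBI1 were among the most line-specific in an earlier reading of these counts, so their responses and levels are given as values with no test. The other 6 genes were added as family relatives, and these are tested.

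RNA was sequenced from H1975 and HCC44, both established human non-small-cell lung cancer cell lines labelled wild type. Each line was cultured for 96 hours with the solvent DMSO alone or with ACBI1 at 1 mM, the unit the labels print, which is far higher than degraders are usually used and so is uncertain. ACBI1 is a small molecule that brings the VHL ubiquitin ligase to SMARCA2, SMARCA4 and PBRM1, components of SWI/SNF chromatin remodellers, so that these proteins are degraded. Each of the 4 groups (H1975 DMSO, H1975 ACBI1, HCC44 DMSO and HCC44 ACBI1) held 2 libraries. Nothing in the labels says whether the replicates were separate cultures, so p-values measure only the spread between these libraries.

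RAB27 proteins cycle between a GTP-bound form, which recruits effectors on the vesicle, and a GDP-bound form. The synaptotagmin-like effectors have a RAB27-binding domain at one end and C2 domains that contact membrane at the other, and so dock vesicles under the plasma membrane. RAB27A is best known from melanosomes and from the lytic granules of cytotoxic T cells, and both RAB27 proteins act in exosome release. RAB39B is studied mostly in neurons, and ARL14 in dendritic cells, where it acts in the transport of MHC class II vesicles along actin.

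Counts assigned to genes were 62467286 to 70455517 per library. Of 10 lung epithelial and adenocarcinoma markers, 8 reached a mean of 1 CPM in H1975 and 6 in HCC44, with either treatment. NKX2-1, which marks lung adenocarcinoma, had a DMSO mean of 25.9 CPM in H1975 and of 0.0159 CPM in HCC44, and the surfactant gene SFTPC was at 0 in both DMSO groups. The pan-leukocyte marker PTPRC had 10 counts over all 8 libraries. Of 5 fibroblast markers, DCN was at 0 in every library and 2 reached 1 CPM in HCC44 DMSO and 3 in HCC44 ACBI1. Their summed level was 74.3 to 92.7 CPM in HCC44 DMSO and 207 to 411 CPM in HCC44 ACBI1, most of it from the collagen gene COL1A1, and its part in the HCC44 results below was not tested. In H1975 the summed epithelial markers were at 5163 to 5423 CPM with DMSO and 2351 to 2835 CPM with ACBI1, and the 4 neuroendocrine markers at 0.888 to 1.85 CPM and 12.4 to 16.3 CPM, and their part in the H1975 results was not tested either.

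Because RAB27A and RAB27B moved apart in HCC44, it matters that reads tell them apart. Their first 120 coding bases in GENCODE release 29 are shown with the 34 differing bases in capitals.
RAB27A: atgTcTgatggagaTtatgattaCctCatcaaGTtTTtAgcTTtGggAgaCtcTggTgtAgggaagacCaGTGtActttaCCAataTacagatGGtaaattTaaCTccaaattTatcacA
RAB27B: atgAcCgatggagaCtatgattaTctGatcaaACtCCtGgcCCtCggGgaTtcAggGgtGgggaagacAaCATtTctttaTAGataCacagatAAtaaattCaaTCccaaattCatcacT
The longest run of identical bases in this stretch was 8, and identity over the aligned coding sequences was 66.2%. No 50-base stretch of the RAB27B, SYTL1, SYTL2, SYTL3, SYTL4, SYTL5, RAB39B or ARL14 transcript with the longest coding sequence occurred on the same strand in an annotated transcript of any other gene, and for RAB27A the share was 4.05%.

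Levels below are CPM, counts scaled to library sizes corrected by TMM factors, which compare libraries for 1 gene. A fold change is ACBI1 against DMSO unless said otherwise, given on the log2 scale with its standard error (SE) from edgeR. A gene is said to have risen or fallen where edgeR's quasi-likelihood test gave a Benjamini-Hochberg adjusted p under 0.05 over all 21307 genes tested. All 9 genes passed the filter on low counts. In bulk RNA, fewer cells with a transcript and less of it per cell cannot be told apart.

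Of the 6 family relatives, 4 fell and none rose in H1975, and 1 rose and 1 fell in HCC44. Over all tested genes 31.3% were called in H1975, 14.6% as risen and 16.7% as fallen. In HCC44 34.9% were called, 17.5% as risen and 17.4% as fallen. With library totals in place of TMM factors, rises made up 72.3% of all calls in H1975 (46.6% with TMM) and 60.5% in HCC44 (50% with TMM), and among the 6 relatives 2 fell and 1 rose in H1975. The median log2 fold change of the 6 was -0.57 in H1975, against -0.01 for all tested genes, and -0.20 in HCC44, against 0.01. The H1975 count rests on every library. It was 1 without DMSO replicate 1 or without ACBI1 replicate 2, and 2 without DMSO replicate 2 or without ACBI1 replicate 1.

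**Figure D1:**
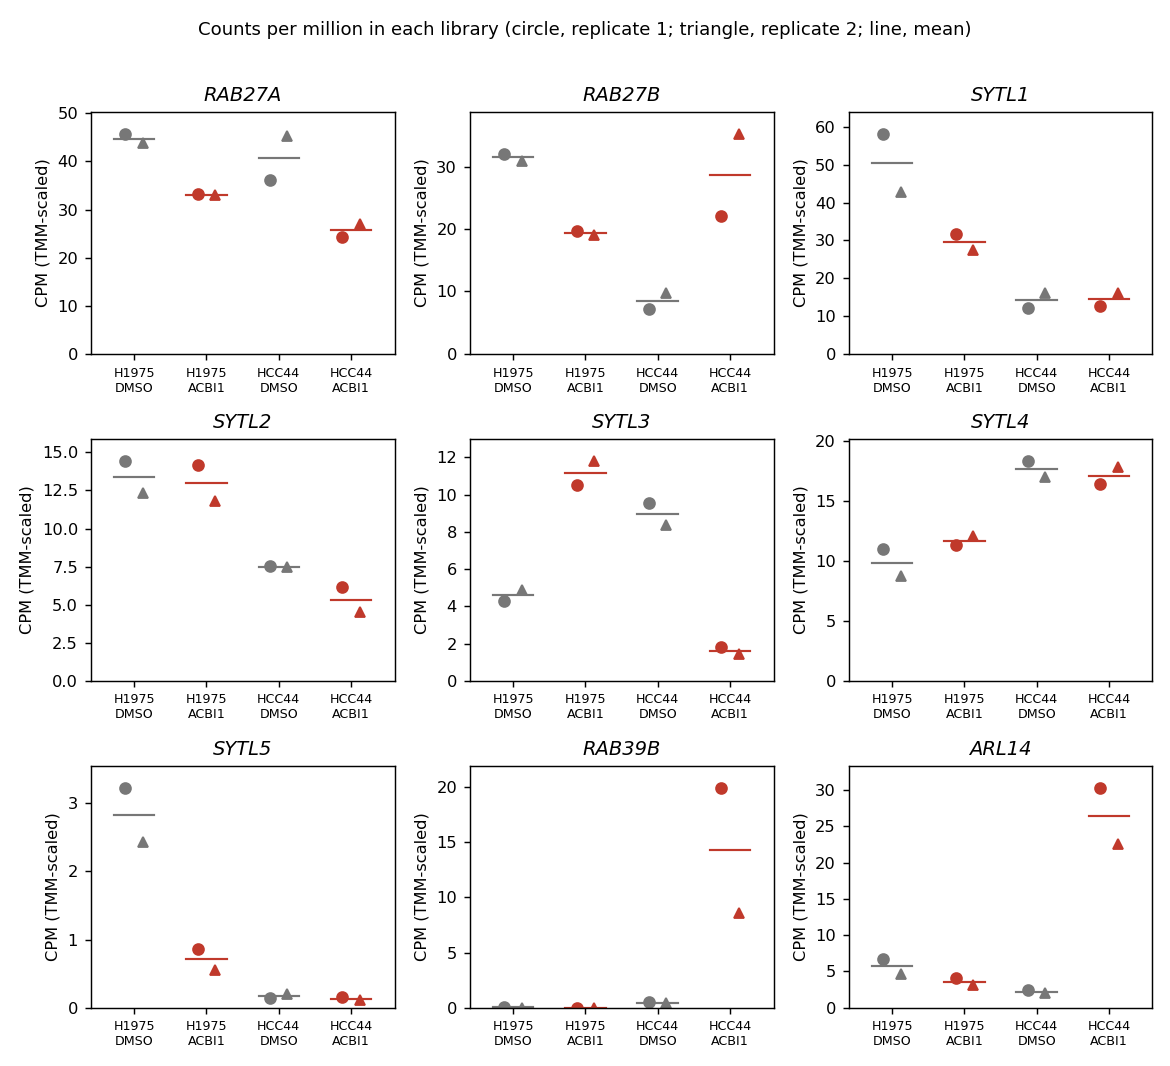
TMM-scaled CPM of each gene (vertical axes from 0, a separate scale per panel) in the 8 libraries, with DMSO in grey, ACBI1 in red, circles for replicate 1, triangles for replicate 2 and lines for group means. RAB39B and ARL14 stand out in HCC44 ACBI1, and SYTL3 is higher with ACBI1 in H1975 and lower in HCC44.

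RAB27A, the GTPase of melanosomes and lytic granules, was at 45.7 and 43.7 CPM in H1975 DMSO and at 33.2 and 32.9 CPM in H1975 ACBI1. In HCC44 it was at 36.1 and 45.2 CPM with DMSO and at 24.4 and 27.1 CPM with ACBI1. Both DMSO libraries lay above both ACBI1 libraries in each line. RAB27A fell in both lines, by 0.44 in H1975 (SE 0.12, adjusted p 0.0193) and by 0.66 in HCC44 (SE 0.12, adjusted p 0.00184). The HCC44 fall was called under all 17 alternatives, while the H1975 fall was lost when any single H1975 library was left out and with library totals in place of TMM factors. The responses did not differ between the lines past the threshold (log2 difference -0.22, SE 0.17, adjusted p 0.413), nor did the DMSO levels, whose ranges overlapped (adjusted p 0.331).

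RAB27B, its paralog, was at 32.1 and 30.9 CPM in H1975 DMSO and at 19.7 and 19.1 CPM in H1975 ACBI1. In HCC44 it was at 7.25 and 9.69 CPM with DMSO and at 22.0 and 35.3 CPM with ACBI1. The order of the groups thus turned over: RAB27B was lowest in HCC44 DMSO, while the HCC44 ACBI1 libraries, far apart from each other, spanned the level of H1975 DMSO. RAB27B fell by 0.70 (SE 0.20, adjusted p 0.0263) in H1975, a call lost when any single H1975 library was left out and with library totals. It rose 3.38-fold in HCC44, a log2 fold change of 1.76 (SE 0.21, adjusted p 0.000187), between 1.38 with ACBI1 replicate 2 left out and 2.06 with replicate 1 left out, and was called under all 17 alternatives. The difference between the responses was 2.46 (SE 0.29, adjusted p 0.000706), in a comparison where 18.6% of all tested genes were called, 10.2% as positive and 8.40% as negative. RAB27B was the 1 family relative past the threshold there.

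Divided by exon length, RAB27B was at 0.529 and 0.533 of the RAB27A level in H1975 DMSO and at 0.449 and 0.437 in H1975 ACBI1. In HCC44 this ratio was 0.151 and 0.162 with DMSO and 0.681 and 0.982 with ACBI1. RAB27A was the more abundant per length in all 8 libraries, by little in HCC44 ACBI1 replicate 2. In that library RAB27B had the higher CPM (35.3 against 27.1), so the order there rests on the exon lengths used. The summed RAB27 level per kilobase was 8.39 ± 1.4 CPM in HCC44 DMSO and 8.44 ± 1.6 CPM in HCC44 ACBI1 (mean ± SD, n = 2), since the fall of one and the rise of the other were of like size on this scale. In H1975 it was 12.2 ± 0.36 and 8.51 ± 0.098 CPM per kilobase (n = 2).

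SYTL1, whose protein binds RAB27 on secretory granules, was at 58.2 and 42.7 CPM in H1975 DMSO and at 31.8 and 27.6 CPM in H1975 ACBI1. In HCC44 it was at 12.2 and 16.1 CPM with DMSO and at 12.7 and 16.1 CPM with ACBI1. The H1975 groups did not overlap and the HCC44 groups did. SYTL1 fell by 0.77 (SE 0.19, adjusted p 0.0106) in H1975, a call lost without DMSO replicate 1 or ACBI1 replicate 2. In HCC44 the fold change was 0.03 (SE 0.19, adjusted p 0.952). The difference between the lines was 0.79 (SE 0.26, adjusted p 0.0626), which missed the threshold, and it was called under 6 of 16 alternatives.

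SYTL2, an effector that tethers vesicles to the plasma membrane, was at 14.5 and 12.3 CPM in H1975 DMSO and at 14.2 and 11.8 CPM in H1975 ACBI1. In HCC44 it was at 7.55 and 7.45 CPM with DMSO and at 6.15 and 4.53 CPM with ACBI1. Neither response was called (adjusted p 0.885 in H1975 and 0.0613 in HCC44). The HCC44 value of -0.49 (SE 0.18) lay close to the threshold and was called under 4 of 17 alternatives.

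SYTL4, or granuphilin, docks insulin granules in beta cells. It was at 11.0 and 8.74 CPM in H1975 DMSO and at 11.3 and 12.1 CPM in H1975 ACBI1. HCC44 had 18.4 and 17.04 CPM with DMSO and 16.4 and 17.8 CPM with ACBI1. The H1975 groups were separated by a narrow margin and the HCC44 groups overlapped. Neither response was called, with log2 fold changes of 0.25 (SE 0.15, adjusted p 0.233) and -0.05 (SE 0.14, adjusted p 0.833). SRPX2, on the opposite strand, and SYTL4 share 17.5% of the SYTL4 exon bases, so without a stated strand setting the SYTL4 counts are uncertain.

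Per exon length, SYTL5 was the scarcest of the effectors in every group, with mean shares of the summed SYTL level from 0.415 to 4.29%. It had 208 and 164 counts in H1975 DMSO (3.23 and 2.43 CPM) and 65 and 39 counts in H1975 ACBI1 (0.865 and 0.552 CPM). It fell 3.98-fold in H1975, a log2 fold change of -1.99 (SE 0.31, adjusted p 0.00097), and this call held under all 17 alternatives. In HCC44 it had 22 counts with DMSO and 17 with ACBI1 over both libraries, a ratio of 0.777 with an exact 95% interval of 0.387 to 1.53 that covers counting error only. The interval leaves out the spread between replicates, so it is neither a limit of detection nor a test against the H1975 ratio of 0.253. The difference between the responses missed the threshold (1.63, SE 0.60, adjusted p 0.0833) and was called under 1 of 16 alternatives.

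SYTL3, the effector that links lytic granules to kinesin in T cells, was at 4.30 and 4.87 CPM in H1975 DMSO and at 10.5 and 11.8 CPM in H1975 ACBI1. In HCC44 it was at 9.57 and 8.37 CPM with DMSO and at 1.79 and 1.43 CPM with ACBI1. The groups of each line did not overlap, and they were ordered in opposite ways. The log2 fold change was 1.28 (SE 0.18) in H1975 and -2.48 (SE 0.20) in HCC44, or 2.43-fold higher and 5.56-fold lower. The log2 difference, by which it was chosen, was -3.76 (SE 0.27). It ranged from -3.92 to -3.60 with 1 library left out.

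**Figure D2:**
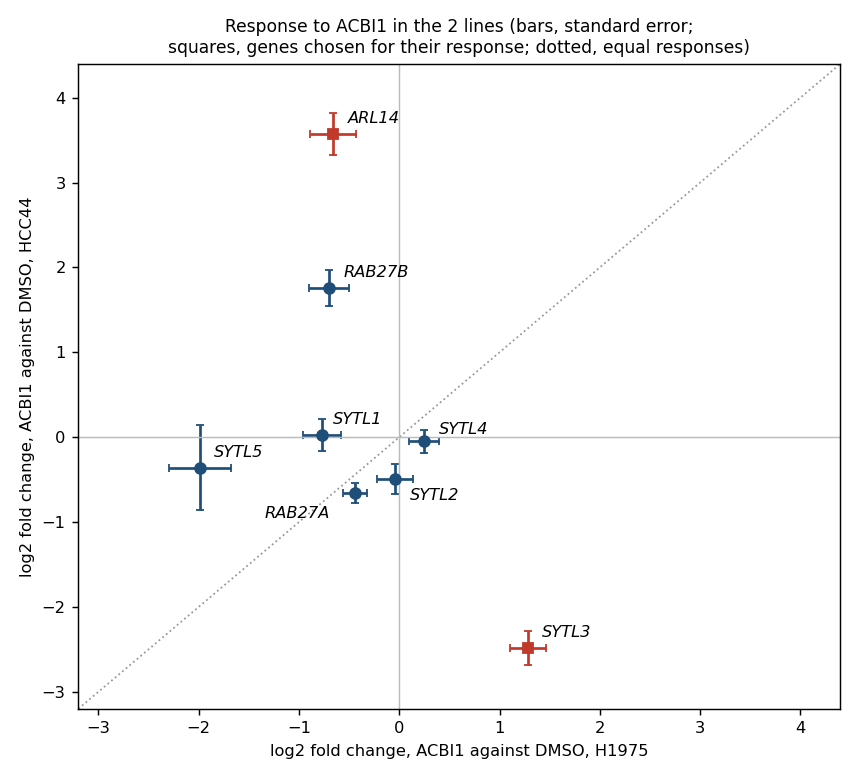
Log2 fold change with ACBI1 in H1975 (horizontal axis) against HCC44 (vertical axis) with standard errors for 8 genes, the dotted line marking equal responses. SYTL3 (1.28 and -2.48) and ARL14 (-0.66 and 3.57) lie far from the line on opposite sides, and RAB27B (-0.70 and 1.76) lies on the ARL14 side. RAB39B is not drawn because it had 5 counts in all H1975 libraries together.

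The mix of effectors differed between groups. Per kilobase of exon, SYTL1 held 67.9 and 63.2% of the summed SYTL level in H1975 DMSO and 46.4 and 41.8% in H1975 ACBI1, while SYTL3 held 9.68 and 13.9% and then 29.5 and 34.6%. In HCC44 DMSO, SYTL3 led in replicate 1 and was level with SYTL1 in replicate 2. SYTL1 held 25.2 and 32.9%, SYTL3 38.2 and 32.9%, and SYTL4 28.6 and 26.1%. In HCC44 ACBI1, SYTL1 (40.1 and 46.5%) and SYTL4 (38.8 and 38.7%) held most of the total and SYTL3 held 10.9 and 7.97%. All these shares depend on the exon lengths used and on the SYTL4 counts, which are uncertain. The summed level was 13.7 ± 2.3 and 12.1 ± 0.34 CPM per kilobase in H1975 DMSO and ACBI1, and 8.72 ± 0.084 and 5.94 ± 0.36 in HCC44 (mean ± SD, n = 2).

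**Figure D3:**
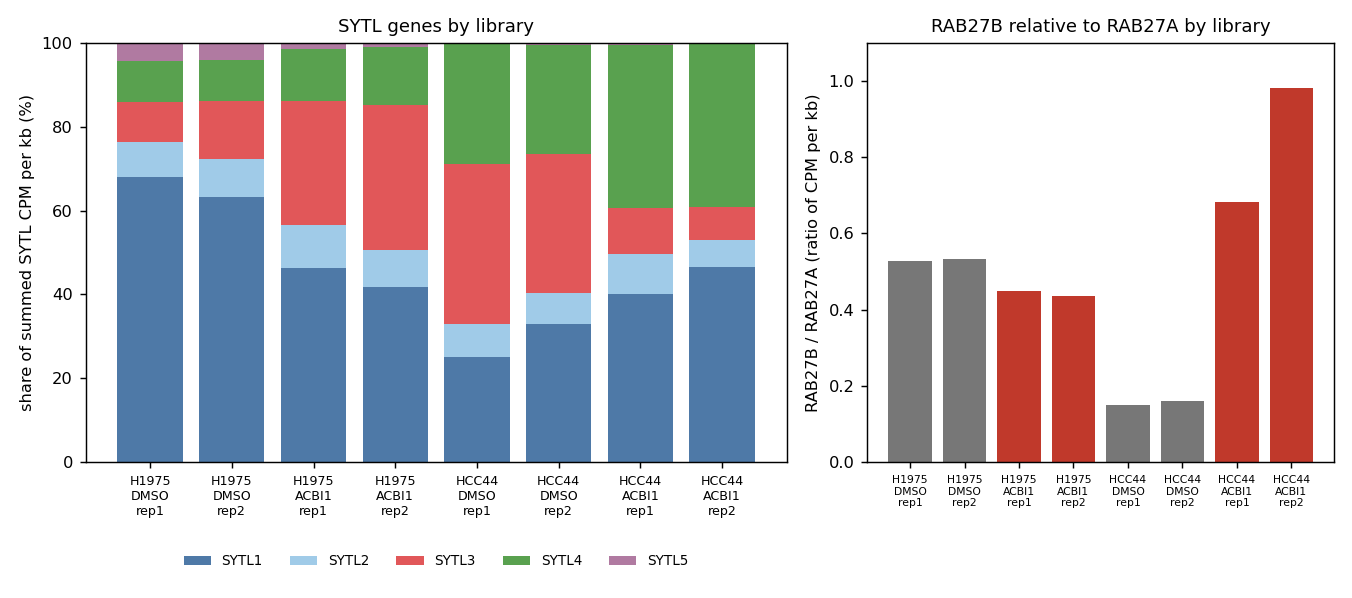
Left, share of the summed SYTL level (CPM per kilobase of exon, %) held by each SYTL gene in each library. Right, ratio of RAB27B to RAB27A (CPM per kilobase) in each library, DMSO in grey and ACBI1 in red. The SYTL3 share is larger with ACBI1 in H1975 and smaller in HCC44, and the RAB27 ratio is 0.151 and 0.162 in HCC44 DMSO and 0.681 and 0.982 in HCC44 ACBI1.

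ARL14 was at 6.68 and 4.69 CPM in H1975 DMSO and at 4.11 and 3.10 CPM in H1975 ACBI1. In HCC44 it was at 2.42 and 2.02 CPM with DMSO and at 30.3 and 22.5 CPM with ACBI1. Both HCC44 ACBI1 libraries were above every other library, and HCC44 DMSO was the lowest group. The log2 fold change was -0.66 (SE 0.23) in H1975 and 3.57 (SE 0.25) in HCC44, where ARL14 was 11.9-fold higher. The log2 difference was 4.23 (SE 0.33), and with 1 library left out it ranged from 3.96 to 4.43. Its partners ARL14EP and MYO1E, which join ARL14 vesicles to actin, were read beside it. ARL14EP had log2 fold changes of 0.28 (adjusted p 0.143) and 0.17 (adjusted p 0.382) in H1975 and HCC44, and MYO1E fell in both, with log2 fold changes of -0.41 (adjusted p 0.0236) and -0.37 (adjusted p 0.0353). The MYO1E calls were lost with library totals and likewise with upper-quartile factors, in H1975 without DMSO replicate 1 or ACBI1 replicate 2, and in HCC44 without DMSO replicate 2 or either ACBI1 replicate.

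RAB39B was all but undetected in H1975, with 3 and 0 counts with DMSO and 1 and 1 count with ACBI1, so no fold change is given there and its response cannot be compared between the lines. In HCC44 it had 31 and 27 counts with DMSO (0.493 and 0.423 CPM) and 1247 and 545 counts with ACBI1 (19.96 and 8.58 CPM). The log2 fold change was 4.96 (SE 0.46), or 31.0-fold. Both ACBI1 libraries were far above both DMSO libraries, but they also differed from each other, and the value was 4.22 when ACBI1 replicate 1 was left out and 5.44 when replicate 2 was. The lines differed before treatment as well, with 58 counts in HCC44 DMSO against 3 in H1975 DMSO, a ratio of 20.1 (95% interval for counting error 6.56 to 101). The subunits of the complex that activates RAB39B did not move alike in HCC44: WDR41 rose by 0.45 (adjusted p 0.00677), SMCR8 fell by 0.27 (adjusted p 0.0324), and C9orf72 was at -0.40 (adjusted p 0.136). The WDR41 call was lost without HCC44 DMSO replicate 1, and SMCR8 was called under 7 of 17 alternatives, in none of those that left out an HCC44 library. In H1975 none of these subunits was called, the lowest adjusted p being 0.0924 for WDR41, which was called there under 3 of 17 alternatives, with adjusted p-values over all 17 from 0.0066 to 0.396.

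With DMSO alone, the lines already differed in 5 of the 6 family relatives, in a comparison where 67.9% of all tested genes were called, 31.6% as higher and 36.4% as lower in HCC44. HCC44 had less RAB27B (log2 difference -1.89, SE 0.21, adjusted p 2.08e-05), SYTL1 (-1.83, SE 0.19, adjusted p 9.75e-06), SYTL2 (-0.84, SE 0.18, adjusted p 0.00169) and SYTL5 (-4.01, SE 0.38, adjusted p 3.18e-06). It had more SYTL4 (0.84, SE 0.15, adjusted p 0.000374). These 5 were called under all 16 alternatives. Of the genes given without a test, SYTL3 was higher in HCC44 DMSO (0.97, SE 0.18) and ARL14 was lower (-1.36, SE 0.24). RAB27B and ARL14, lower in HCC44 DMSO than in H1975 DMSO, were higher in HCC44 ACBI1 than in HCC44 DMSO, and SYTL3 had the opposite order in both respects. These comparisons share the DMSO libraries, so they are not independent.

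The promoters of RAB27B and SYTL3, which responded in opposite ways in each line, are shown as the bases upstream of the outermost RefSeq start (GRCh38.p14, plus strand), cut before any annotated UTR. RAB27B lies at chr18:54717607-54717856 and SYTL3 at chr6:158649804-158650013.
RAB27B: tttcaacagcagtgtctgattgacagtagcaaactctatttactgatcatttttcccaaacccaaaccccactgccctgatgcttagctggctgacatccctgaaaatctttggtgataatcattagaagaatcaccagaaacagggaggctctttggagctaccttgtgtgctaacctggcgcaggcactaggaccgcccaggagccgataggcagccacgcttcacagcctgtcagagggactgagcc
SYTL3: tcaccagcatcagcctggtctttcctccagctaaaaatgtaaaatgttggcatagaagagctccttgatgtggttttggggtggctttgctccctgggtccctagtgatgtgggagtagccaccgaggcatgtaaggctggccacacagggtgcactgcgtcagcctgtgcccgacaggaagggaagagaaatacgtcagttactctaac
Both stretches are poor in CpG. The 250 bases upstream of this outer start hold 4 CpG in RAB27B and 5 in SYTL3, where the median of 18663 upstream windows of tested genes was 19. A script searched these windows on both strands for the AP-1 motif TGANTCA, the TEAD motif GGAATG, the TATA motif TATAAA and the CRE motif TGACGTCA, and none of these letters occurred in either. The 250 bases upstream of the inner RefSeq start hold 12 CpG in RAB27B and 1 in SYTL3. Which start these cells use was not tested. An AP-1 match in the upstream window of the inner RefSeq start, which lies inside a GENCODE 29 UTR of the same gene, is in capitals below, at chr18:54828330-54828356 for RAB27B and chr6:158662814-158662840 for SYTL3.
RAB27B: ctgcagcagtTGAGTCAccagcaagac
SYTL3: ttagcttctaTGAGTCActgatactct
Of the 14 upstream windows that RefSeq gives for 6 of the 9 genes, 4 held the AP-1 motif, against 4.96% of windows of tested genes. For the TEAD motif it was 4 of 14 against 10.2%, for the TATA motif 3 of 14 against 6.56%, and for the CRE motif 0 of 14 against 2.31%. The 14 windows are not independent, because every gene here but SYTL1 gives more than a single window, RAB27A the most. Some of these windows hold annotated UTR of the gene or of a neighbour. A match describes the letters and is not evidence of binding.

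The other genes of the pathway were read from 5 lists. Among 18 tested regulators and effectors of RAB27 and RAB39B other than the SYTL genes, 8 fell and none rose in H1975, and 11 fell and 2 rose in HCC44. The medians were -0.26 and -0.39, and 44.4 and 72.2% of the list were called. The mean level of all 18 reached 5 CPM, and of the 11659 tested genes with such a mean 38.1 and 44.6% were called, which is the nearer background for a list of expressed genes. The H1975 share of calls in either direction is near it, but the share that fell is not. In H1975 44.4% of the list fell and none rose, against 23.0 and 15.0% of all tested genes with such a mean. Leaving out a single H1975 library gave 4 calls for DMSO replicate 1, 5 for DMSO replicate 2 and 3 for ACBI1 replicate 2. With library totals 4 fell and 2 rose in H1975 and 8 fell and 2 rose in HCC44.

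By the naming rule, MLPH was the largest fall in H1975. This gene encodes melanophilin, which links RAB27A to myosin Va. H1975 had 138 and 95.8 CPM with DMSO and 55.1 and 45.9 CPM with ACBI1, and HCC44 had 85.7 and 109 CPM and then 44.4 and 52.7 CPM. Its log2 fold change was -1.21 (adjusted p 0.00171) in H1975 and -1.0 (adjusted p 0.00342) in HCC44, both called under all 17 alternatives. UNC13D encodes Munc13-4, a RAB27 effector that primes lytic granules for fusion, and by the same rule was the largest fall in HCC44. It was at 83.9 and 65.7 CPM and then 39.9 and 28.6 CPM in H1975, and at 111 and 108 CPM and then 9.11 and 15.9 CPM in HCC44. The log2 fold change was -1.12 (adjusted p 0.0147) in H1975 and -3.12 (adjusted p 0.000148) in HCC44, and the difference was called (-2.00, SE 0.37, adjusted p 0.0102). UNC13D, like SNAP25 and RAB3B below, was named for a response that is part of this difference, so its test depends on that choice. The H1975 fall was lost without either DMSO replicate or without ACBI1 replicate 2, and the difference without H1975 DMSO replicate 2 (adjusted p 0.0552). CHML, a RAB escort protein, rose by 0.47 (adjusted p 0.0313) in HCC44. This call was lost without DMSO replicate 1 or ACBI1 replicate 2, and likewise with the HCC44 groups fitted alone (adjusted p 0.0547).

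A pair of further effectors, EXPH5 and RPH3AL, were named after their values were seen, because with MLPH and UNC13D they were the 4 of this list that fell at least 2-fold in HCC44. EXPH5 had log2 fold changes of -0.44 (adjusted p 0.0265) in H1975 and -1.11 (adjusted p 0.000127) in HCC44, and the H1975 call was lost when any single H1975 library was left out, and also with library totals (-0.23) or upper-quartile factors (-0.36). RPH3AL had -1.13 (adjusted p 7.6e-05) and -1.68 (adjusted p 3.72e-06). MYO5A, the motor that melanophilin binds, was named outside the naming rule. It fell by 0.51 (adjusted p 0.00312) in HCC44, and its H1975 response is not given here.

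Of 33 tested exocytic SNARE, exocyst and synaptotagmin genes, 6 rose and 12 fell in H1975 and 4 rose and 8 fell in HCC44, with medians of -0.24 and -0.10. These are 54.5 and 36.4% of the list, against 31.3 and 34.9% of all tested genes. Among genes whose mean reached 5 CPM, the list had 53.6 and 39.3% called and all tested genes 38.1 and 44.6%. So the HCC44 count in either direction is near the background or below it. In HCC44 28.6% of these list genes fell, against 24.5% of all tested genes with such a mean. The 10.7% that rose there was a smaller share than of all tested genes with such a mean. With library totals the split was 8 and 8 in H1975 and 6 and 7 in HCC44, and 7 were called in HCC44 without DMSO replicate 2. SNAP25, a plasma membrane SNARE, was by that rule the largest rise in HCC44. It went from 2.75 and 4.42 CPM to 17.9 and 37.5 CPM, a log2 fold change of 2.95 (SE 0.36, adjusted p 0.000399). It was 2.32 with ACBI1 replicate 2 left out, where the difference between the lines was 2.01. In H1975 it was at 0.31 (adjusted p 0.526), and the difference was called (2.64, SE 0.48, adjusted p 0.00779). STX3, the SNARE of the apical membrane, fell in both lines, with log2 fold changes of -0.61 (adjusted p 0.00262) in H1975 and -1.12 (adjusted p 5.24e-05) in HCC44. In H1975 SYT5, a calcium sensor gene, rose by 1.60 (adjusted p 0.00693), a call lost with DESeq2 and without DMSO replicate 1 or ACBI1 replicate 2. SYT16 fell by 1.28 there (adjusted p 0.0051). SYT16 had 0 CPM in both HCC44 DMSO libraries.

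Among 50 other tested RAB genes, 9 rose and 19 fell in H1975 and 8 rose and 21 fell in HCC44, with medians of -0.18 and -0.20. These are 56.0 and 58.0% of the list, against 31.3 and 34.9% of all tested genes. Among genes whose mean reached 5 CPM, the list had 59.5 and 67.6% called and all tested genes 38.1 and 44.6%. With library totals 14 rose and 7 fell in H1975, so the majority there depends on the scaling, and 12 rose and 18 fell in HCC44. The H1975 count was 13 without DMSO replicate 2 or ACBI1 replicate 2 and 15 without ACBI1 replicate 1. RAB3B, a GTPase of regulated secretion, rose in H1975 and fell in HCC44, the directions SYTL3 had within each line, although its level was far higher in HCC44 than in H1975. H1975 had 1.93 and 2.50 CPM with DMSO and 5.77 and 7.32 CPM with ACBI1, and HCC44 had 66.3 and 90.8 CPM and then 24.9 and 21.7 CPM. RAB3B rose by 1.56 in H1975 (SE 0.20, adjusted p 0.000335) and fell by 1.75 in HCC44 (SE 0.18, adjusted p 5.33e-05), a difference of -3.31 (SE 0.27, adjusted p 7.09e-05). RAB15, of recycling endosomes, rose in HCC44 from 6.49 and 4.70 CPM to 20.3 and 21.4 CPM (1.90, adjusted p 6.5e-05) and was at 0.44 (adjusted p 0.109) in H1975, where it was called under 4 of 17 alternatives, with adjusted p-values over all 17 from 0.0189 to 0.441. RAB20 fell by 0.81 (adjusted p 0.00488) in H1975.

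The 24 tested ARF and ARL relatives and ARL14 partners split into 4 risen and 7 fallen in H1975 and 3 risen and 8 fallen in HCC44, with medians of -0.08 and -0.07. This is 45.8% of the list in each line. Among genes whose mean reached 5 CPM, the list had 42.9 and 47.6% called in either direction, near the 38.1 and 44.6% of all tested genes. By direction, 33.3 and 38.1% of these list genes fell, against 23.0 and 24.5% of all tested genes with such a mean. In each line 9.52% of them rose, a smaller share than of all tested genes with such a mean. With library totals 8 rose and 3 fell in H1975 and 3 rose and 6 fell in HCC44. The H1975 count was 4 without DMSO replicate 1 or without ACBI1 replicate 2. ARF1, which recruits coats at the Golgi, had log2 fold changes of -0.38 (adjusted p 0.00619) in H1975, lost with library totals and without ACBI1 replicate 2, and -1.08 (adjusted p 1.04e-05) in HCC44. The ciliary GTPase gene ARL3 rose by 0.52 (adjusted p 0.0176) in H1975, lost without DMSO replicate 1 or ACBI1 replicate 2.

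Of 31 exosome and ESCRT genes, 3 rose and 15 fell in H1975 and 2 rose and 10 fell in HCC44, with medians of -0.29 and -0.13. These are 58.1 and 38.7% of the list, against 31.3 and 34.9% of all tested genes. Among genes whose mean reached 5 CPM, the list had 60.7 and 35.7% called and all tested genes 38.1 and 44.6%. So the HCC44 count in either direction is near the background or below it. In HCC44 32.1% of these list genes fell, against 24.5% of all tested genes with such a mean. The 3.57% that rose there was a smaller share than of all tested genes with such a mean. With library totals it was 5 and 7 in H1975 and 3 and 8 in HCC44, and the H1975 count was 10 without DMSO replicate 2 or either ACBI1 replicate. CD63, a tetraspanin of late endosomes and exosomes, had 307 and 280 CPM with DMSO and 139 and 122 CPM with ACBI1 in H1975, and 197 and 211 CPM and then 85.0 and 89.2 CPM in HCC44. Its log2 fold changes were -1.17 (adjusted p 2.24e-05) and -1.23 (adjusted p 8.94e-06), called under all 17 alternatives. The tetraspanin gene CD82 fell by 1.32 (adjusted p 0.00106) in HCC44. The ESCRT genes VPS28, in H1975 (0.62, adjusted p 0.0011), and VPS36, in HCC44 (0.40, adjusted p 0.0239), were the rises the naming rule gave. The other rise called in HCC44 was of TSPAN8, named after its values were seen, at 0.0318 and 0.125 CPM with DMSO and 0.352 and 1.43 CPM with ACBI1. The VPS36 call was lost without either DMSO replicate or without ACBI1 replicate 1.

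**Figure D4:**
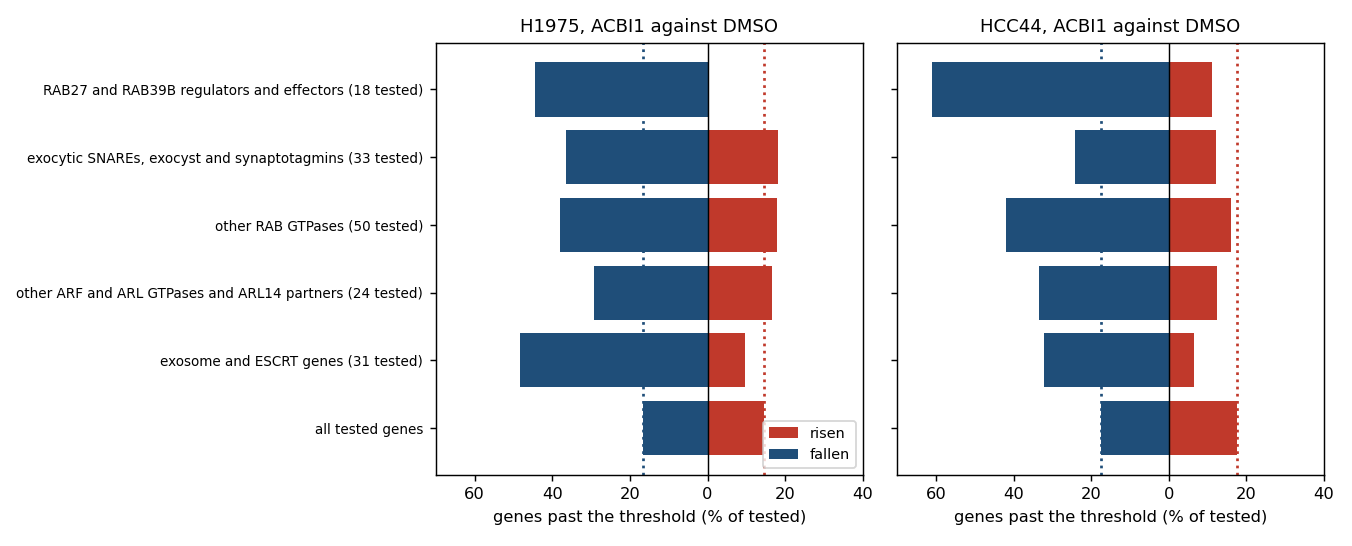
Share of the tested genes of each list that rose (red, right) or fell (blue, left) with ACBI1 in H1975 and HCC44, in percent of those tested, with the same for all tested genes in the bottom row and as dotted lines. The regulators and effectors in HCC44 have the longest bar on the fallen side, 11 of 18 genes.

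The difference between the lines was called for 7 of 18 regulators and effectors, 10 of 33 SNARE, exocyst and synaptotagmin genes, 7 of 50 RAB genes, 7 of 24 ARF and ARL genes and 8 of 31 exosome and ESCRT genes. These are 38.9, 30.3, 14, 29.2 and 25.8%, against 18.6% of all tested genes. Among genes whose mean reached 5 CPM, 26.1% of all tested were called, and 38.9, 28.6, 18.9, 28.6 and 28.6% of the lists. Leaving out 1 library moved these counts by over 1.5 times in several cases. For regulators and effectors the count was 2 without H1975 DMSO replicate 1 or H1975 ACBI1 replicate 2, 3 without HCC44 DMSO replicate 1 and 4 without HCC44 DMSO replicate 2. For SNARE, exocyst and synaptotagmin genes it was 5 without HCC44 DMSO replicate 2. For RAB genes it was 3 without H1975 ACBI1 replicate 2 and 4 without either H1975 DMSO replicate or HCC44 DMSO replicate 1. For ARF and ARL genes it was 3 without H1975 ACBI1 replicate 2 and 4 without H1975 DMSO replicate 1 or HCC44 DMSO replicate 2. For exosome and ESCRT genes it was 3 without H1975 ACBI1 replicate 2 and 5 without H1975 DMSO replicate 2 or H1975 ACBI1 replicate 1.

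Likeness to the 3 genes chosen by response was measured as Pearson's r of log2(CPM + 0.1) over the 8 libraries, among 14777 genes whose mean reached 1 CPM. The libraries fall into 4 groups that all genes share, so r is a description. For SYTL3 the closest 3 included DRAP1 (r = 0.992) and HDDC3 (0.982). Their changes had the same order and were smaller, with DRAP1 at 0.36 in H1975 and -0.72 in HCC44. For ARL14 they were CDCA7 (0.980), TARS1-DT (0.977) and HCFC1 (0.968), with CDCA7 at 1.02 in HCC44. For RAB39B they were GPATCH4 (0.994), RASEF (0.994) and C1orf216 (0.992). In HCC44 GPATCH4 was at 0.39 and RASEF at 0.71, against 4.96 for RAB39B. The RAB39B values in H1975 are set mostly by the added 0.1, so its r says little about H1975.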

How the data were processed

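The authors deposited 1 table of read counts per library, with 61228 gene names and 5 summary rows. HTSeq 0.11.0, TopHat2 2.1.1 and hg38 are named in the submitters' processing notes; the annotation and strand setting are not given in the sources used here. Summary rows (14.3 to 15.8% of each table) were left out. The members and lists were chosen with earlier results of these data known.

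Genes passing filterByExpr were fitted in edgeR 4.0.16 (R 4.3.3) with TMM factors and a mean per group over all 8 libraries, with 4 residual degrees of freedom, by the robust quasi-likelihood F-test, two-sided. Genes were named by a rule: the 9 members, per list and line the largest called rise and fall with at least 5 CPM in a group and groups that did not overlap, and the 3 genes most like each response-chosen gene; some genes under this rule are not reported here. Levels per kilobase used merged exons of GENCODE release 29. Of the counted gene names 59.6% matched that release, so the lengths may differ from those of the annotation used for counting. On simulated counts for 21307 genes, 77.5% of 2-fold changes in H1975, 82.8% in HCC44 and 54.0 and 52.6% in the difference (changes placed in H1975 or HCC44) were found. False calls made up 11.8, 10.2, 12.5 and 8.4%, above the nominal level. Each draw changed few genes, in a single line, whereas 31.3 and 34.9% of tested genes were called in these data. All changed genes passed a minimum DMSO count that SYTL5 in HCC44 did not reach, so these rates need not hold here. Replicates differed by more than counting noise (chi-square per degree of freedom 24.0 to 48.4). Alternatives were other scalings and filters, DESeq2 1.42.0, compared groups alone, a replicate block, non-robust dispersion and each library left out, with the filter applied anew; for named genes other than the 9, they were added after seeing the data. Figures used matplotlib 3.10.9.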

Additional observations from a re-analysis of the deposited data

Results flagged for a closer look

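By edgeR's test of the difference, H1975 and HCC44 responded unequally for 1 of the 6 family relatives and for 8 genes named from the lists. Over all tested genes 18.6% were called for this difference. The 8 list genes were named for a large called response in a line, which is part of the difference. Their adjusted p-values are therefore not independent of how they were chosen. The log2 difference, HCC44 minus H1975, was 2.46 for RAB27B, 2.64 for SNAP25 and 1.46 for RAB15 (adjusted p 0.00563). It was -3.31 for RAB3B, -2.00 for UNC13D, -0.74 for VPS28 (adjusted p 0.00559), -0.69 for ARF1 (adjusted p 0.00339), -0.64 for ARL3 (adjusted p 0.0498) and -0.52 for STX3 (adjusted p 0.0479). The call was made under all 16 alternatives for RAB27B, SNAP25, RAB15, RAB3B, VPS28 and ARF1, under 15 of 16 for UNC13D, under 9 of 16 for ARL3 and under 8 of 16 for STX3.

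In SYTL3 and ARL14, every ACBI1 library of one line moved opposite to every ACBI1 library of the other, with log2 differences of -3.76 and 4.23. These differences led to the choice of both genes and were not tested.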

How the results depend on the processing

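With 2 libraries a group, most of what moved did so when 1 library was left out, which also leaves fewer residual degrees of freedom. Over these fits the calls among all genes were 3690 to 7161 in H1975, 4945 to 7342 in HCC44 and 2341 to 4134 for the difference between the lines. In H1975 leaving out DMSO replicate 1 gave 4342 and leaving out ACBI1 replicate 2 gave 3690, and in HCC44 leaving out DMSO replicate 2 gave 4945. For the difference they were 2481 without H1975 ACBI1 replicate 2, 2341 without HCC44 DMSO replicate 1 and 2598 without HCC44 DMSO replicate 2. Of the 6 family relatives, 1 to 4 were called in H1975 and 1 to 2 for the difference (2 without H1975 DMSO replicate 2, HCC44 DMSO replicate 2 or HCC44 ACBI1 replicate 1). Regulators and effectors gave 3 to 9 calls in H1975 and 2 to 6 for the difference. SNARE, exocyst and synaptotagmin genes gave 7 to 13 in HCC44 and 5 to 11 for the difference, other RAB genes 13 to 31 in H1975 and 3 to 8, ARF and ARL genes 4 to 12 and 3 to 10, and exosome and ESCRT genes 10 to 18 and 3 to 9. Replicate numbers were not taken as pairs: the labels name no shared batch, and with 2 pairs a line the deviations of same-numbered libraries correlated at 0.374 in H1975 and 0.109 in HCC44. With a replicate block the difference between the lines was called for 6358 genes, for 3 family relatives, and for 12 regulators and effectors, 16 SNARE, exocyst and synaptotagmin genes, 15 RAB genes and 14 exosome and ESCRT genes. The block also called SYTL5 for the difference (1.65, adjusted p 0.0419), SYTL1 for the difference (0.78, adjusted p 0.00188), SYTL2 in HCC44 (-0.50, adjusted p 0.0136), and WDR41 (adjusted p 0.0349) and RAB15 (adjusted p 0.0189) in H1975. No blocked fit was made between the DMSO groups, where numbers cross lines. DESeq2 called 2 family relatives and 11 regulators and effectors for the difference, and with no filter on low counts 2 family relatives were called. Changes near 0 turned sign. RAB27A between the DMSO groups was at -0.313 to 0.021 with 1 library left out, with 0.021 without HCC44 DMSO replicate 1. SYTL1 in HCC44 was at -0.168 when DMSO replicate 1 was left out and -0.152 when ACBI1 replicate 2 was, in a range up to 0.247. SYTL2 in H1975 was at 0.03 with upper-quartile factors, 0.161 with library totals, 0.072 with DMSO replicate 1 left out and 0.107 with ACBI1 replicate 2 left out, in a range from -0.145. SYTL4 in HCC44 was at 0 with upper-quartile factors and without DMSO replicate 1, at 0.04 with library totals and at 0.011 without ACBI1 replicate 1, in a range from -0.111. Library totals moved the median gene up by 0.194 in H1975 and 0.087 in HCC44, and SYTL3 in H1975 to 1.49. The cause of these shifts was not tested. Of 1752 values under an alternative, 1594 were kept by these rules. Tested genes kept their direction and side of the threshold, and counts stayed within 1.5 times. Genes given without a test kept their direction and moved by less than the combined replicate SD of the compared groups.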
